A study of Mus musculus with 12 samples.

Results

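The 8 genes described here are markers of the macrophages that line the sinuses of the lymph node: Siglec1, Cd209b, Marco, Timd4, Cd5l, Mrc1, Cd163 and Vsig4. They were taken as a list of names, chosen with earlier results of these data known. All 8 were found among the 55487 genes of the count table. They were followed across 12 bulk RNA-seq libraries of mouse lymph node, 3 in each of 4 groups. T mice had been inoculated in the tongue with B16F10 cells, a mouse melanoma line, and NT mice had not. In NDE mice the nociceptive (pain-sensing) nerves that innervate the tumour-draining lymph node were inhibited, and in NC mice they were not. The groups were therefore T NDE (tumour, nerves inhibited), NT NDE (no tumour, nerves inhibited), T NC (tumour, nerves not inhibited) and NT NC (no tumour, nerves not inhibited). The series concerns the draining node before metastasis, and its design asks what the tumour, the nerve inhibition and their combination do to the node. The labels name no strain, age, sex or means of inhibition. The 3 libraries of a group are called independent biological repetitions in the labels, which do not say how many mice a library holds.

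Lymph enters a node under its capsule and percolates through sinuses in which macrophages are held on lymphatic endothelium, where they take up particles, pathogens, dying cells and tumour debris. Subcapsular and medullary sinus macrophages are separated by their surface receptors: both carry the sialic acid-binding lectin encoded by Siglec1 (sialoadhesin, CD169), while the medullary cells also carry the C-type lectin SIGN-R1 (Cd209b) and the scavenger receptor MARCO. CSF1 and the RANK ligand and lymphotoxin signals of stromal cells and B cells maintain these cells. In bulk RNA, fewer cells of a type and less RNA per cell cannot be told apart.

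Library totals ran from 16862953 to 24467873 counts, and values are given as CPM, the counts divided by the library total after edgeR's TMM scaling and set to a common library size. Salivary gland transcripts took 4.19% of the counts in T NDE replicate 3, 3.02% in NT NC replicate 3 and 0.155% in NT NC replicate 2, against at most 0.00659% in the other 9 libraries. T NDE replicate 3 also had the highest share of haemoglobin and other red cell transcripts (0.0229%) and of lymphatic endothelial transcripts (0.0316%), and the lowest share of B cell transcripts (0.291%). Member results that rest on these libraries are given with and without them, as are the medians of gene lists that they moved. The 5 melanocyte genes together lay between 1.32 and 1.78 CPM for T NDE, 0.893 and 1.25 for NT NDE, 0.818 and 2.49 for T NC and 1.36 and 1.58 for NT NC. The T NDE range lay above the NT NDE range, and those of T NC and NT NC overlapped. These levels are near the floor, at most 0.000249% of the counts of any library, and only 2 of the 5 genes had enough counts to be tested.

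The members spanned a wide range of levels in the node. Per kilobase of exon, Cd209b averaged 226 ± 46.2 CPM (SD, n = 12 libraries), Marco 185 ± 41.1, Timd4 96.2 ± 15.8, Siglec1 31.6 ± 7.91, Cd5l 20.4 ± 8.75, Mrc1 15.8 ± 3.66 and Cd163 0.241 ± 0.0711. On this scale the ranges over libraries of Cd209b (156 to 300) and Marco (140 to 243) overlapped, as did those of Siglec1 (20.9 to 42.9) and Cd5l (7.62 to 35.7) and of Cd5l and Mrc1 (9.53 to 20.8). Timd4 (72.8 to 121) lay above Siglec1 in every library. For scale, the complement gene C1qa, which most tissue macrophages express, averaged 122 ± 16.0 CPM per kilobase, and Adgre1, the F4/80 antigen, 9.90 ± 2.27. The defining markers of sinus macrophages were thus well detected in the labelled tissue, with at least 2877 counts of Siglec1, 6019 of Cd209b and 5245 of Marco in every library.

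**Figure D1:**
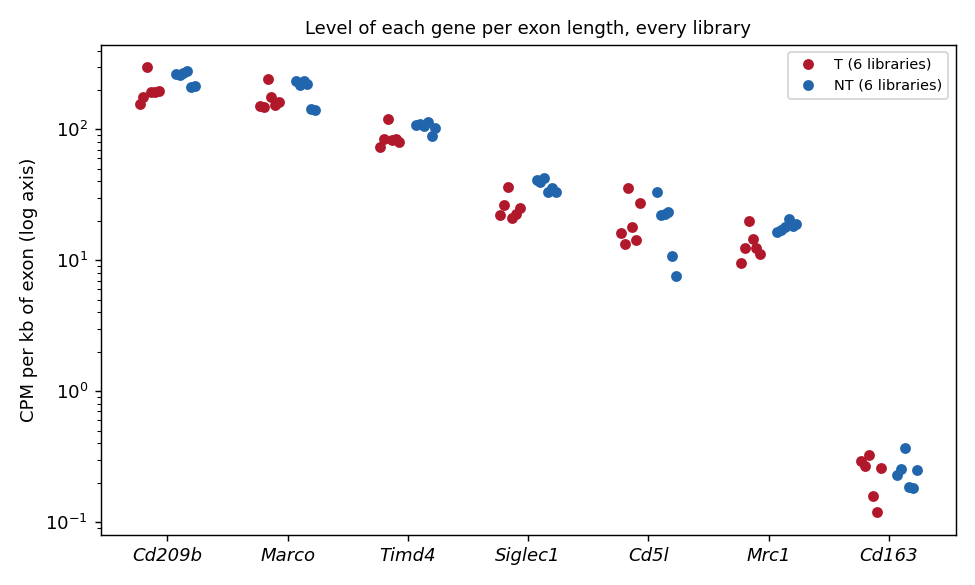
Level of the 7 members with enough counts to be tested, in CPM per kilobase of exon on a log axis, with 1 point per library, T libraries left and NT libraries right. Cd209b and Marco are highest, with means of 226 and 185, and Cd163 lies far below the others at 0.241.

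Cd163 and Vsig4 were scarcely detected. Cd163, the haemoglobin-haptoglobin scavenger receptor, had 14 to 38 counts per library. Vsig4, the complement receptor CRIg, had 4 counts in T NDE replicate 2, 1 count in NT NC replicate 3 and 0 in the other 10 libraries. A count of 0 allows up to 3 counts, or 0.123 to 0.178 CPM depending on the library, for counting error alone. Vsig4 did not pass the filter on low counts, so 7 of the 8 members were tested, and no fold change is given for it.

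On mm10, with GENCODE M21 gene models, Siglec1 (ENSMUSG00000027322) lies at chr2:131069220-131086765 on the minus strand, Cd209b (ENSMUSG00000065987) at chr8:3917655-3926844 on the minus strand and Marco (ENSMUSG00000026390) at chr1:120474538-120505024 on the minus strand. Timd4 (ENSMUSG00000055546) lies at chr11:46810800-46844332 on the plus strand, Cd5l (ENSMUSG00000015854) at chr3:87357881-87371073 on the plus strand and Mrc1 (ENSMUSG00000026712) at chr2:14229392-14332057 on the plus strand. Cd163 (ENSMUSG00000008845) lies at chr6:124304656-124330527 on the plus strand and Vsig4 (ENSMUSG00000044206) at chrX:96247203-96293438 on the minus strand. Mrc1 overlaps the microRNA gene Mir511 on its own strand, and the other 7 overlap no annotated gene. Timd4, Mrc1 and Cd209b varied together across libraries, so their promoters are shown with that of Marco, each as the 250 bases before the RefSeq start on GRCm38.p6, the assembly of mm10, on the gene's own strand. Capitals mark a match to GAGGAA, the core letters of the PU box bound by the myeloid factor PU.1, or to GGAA and GAAA with 2 bases between them, a composite element of PU.1 with an interferon regulatory factor, on either strand. The Timd4 promoter is at chr11:46810549-46810798 (plus), that of Mrc1 at chr2:14229164-14229413 (plus), that of Marco at chr1:120505025-120505274 (minus) and that of Cd209b at chr8:3926842-3927091 (minus).
Timd4: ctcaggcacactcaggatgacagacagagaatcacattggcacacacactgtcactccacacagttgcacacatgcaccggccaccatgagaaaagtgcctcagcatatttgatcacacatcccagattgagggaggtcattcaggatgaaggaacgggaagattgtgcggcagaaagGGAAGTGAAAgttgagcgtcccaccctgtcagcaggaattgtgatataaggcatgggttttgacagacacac
Mrc1: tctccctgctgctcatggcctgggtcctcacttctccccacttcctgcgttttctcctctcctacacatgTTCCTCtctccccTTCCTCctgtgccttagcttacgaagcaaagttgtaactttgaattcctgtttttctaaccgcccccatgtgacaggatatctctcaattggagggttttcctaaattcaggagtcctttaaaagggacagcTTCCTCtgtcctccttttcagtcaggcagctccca
Marco: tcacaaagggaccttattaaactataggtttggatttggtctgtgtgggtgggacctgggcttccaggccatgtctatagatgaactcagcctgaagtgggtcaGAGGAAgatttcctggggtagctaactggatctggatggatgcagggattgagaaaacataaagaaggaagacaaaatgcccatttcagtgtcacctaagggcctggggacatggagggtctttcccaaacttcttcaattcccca
Cd209b: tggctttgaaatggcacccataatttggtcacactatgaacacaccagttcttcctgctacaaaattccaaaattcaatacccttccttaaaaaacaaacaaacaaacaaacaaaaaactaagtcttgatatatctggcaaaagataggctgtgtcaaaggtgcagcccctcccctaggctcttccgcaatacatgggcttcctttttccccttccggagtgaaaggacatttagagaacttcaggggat

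Timd4 held the composite element as GGAAGTGAAA, starting 72 bases before its start, where 2.30% of 32851 RefSeq promoter windows of the same length held a match. Mrc1 held GAGGAA 3 times on the minus strand (read as TTCCTC, starting 180, 167 and 35 bases before its start), Vsig4 held it at 155 and 53 bases, Marco at 146 bases and Cd5l at 66 bases. Cd209b and Cd163 held no match in this window. GAGGAA was present in 23.3% of all windows, and a repeat of GAAA with 2 bases between, the core of an interferon-stimulated response element, in 2.98%. This repeat had no match in the 7 members with a promoter sequence. Siglec1 had no promoter sequence and was not searched. A match is a description of letters and was tied to no binding here.

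In nodes of tumour-bearing mice, 6 of the 7 tested members had lower mean levels than in nodes of tumour-free mice, averaged over nerve status, and Siglec1 was the most distinct of them. With all 12 libraries and edgeR's quasi-likelihood test, 0 of the 7 passed an adjusted p of 0.05, where 0% of the 17301 genes tested passed (778 at an unadjusted p under 0.05, and 6 by DESeq2). At an unadjusted p under 0.05 there were 3 members, Siglec1, Mrc1 and Timd4, and 4.5% of all genes. The median log2 fold change of the 7 members was -0.26, beside -0.001 over all genes. One library, T NDE replicate 3, had all 7 members higher than any other T library, and without it 4 members passed. The values follow by role: first the lectins, then the receptor of dying cells, then the scavenger receptors and the secreted Cd5l.

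Siglec1 encodes sialoadhesin, which captures viruses and extracellular vesicles from lymph. It had 158, 189 and 258 CPM in T NDE libraries 1 to 3 and 294, 284 and 306 CPM in NT NDE libraries 1 to 3. In the libraries without nerve inhibition T NC had 149, 160 and 180 CPM, against 237, 256 and 239 CPM for NT NC. Over the 6 T and 6 NT libraries only T NDE replicate 3 reached into the NT range of 237 to 306 CPM. The log2 fold change of T over NT averaged over nerve status was -0.56 (SE 0.099, 95% interval -0.78 to -0.35), or 0.676-fold, with an adjusted p of 0.521 by edgeR. The differences were of like size with and without nerve inhibition: -0.55 (SE 0.140) for T NDE against NT NDE and -0.58 (SE 0.140) for T NC against NT NC. DESeq2's Wald test on the same counts called Siglec1 lower in T NDE than in NT NDE (adjusted p = 0.0351, 0.111% of genes called), in T NC than in NT NC (adjusted p = 0.0120, 0.236% called) and in T than in NT on average (adjusted p = 3.11e-05, 0.0348% called). It was the 1 member that DESeq2 called in each of these comparisons.

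Mrc1 encodes the mannose receptor, a lectin of medullary macrophages that some lymphatic endothelial cells also express. It had 60.7, 79.3 and 127 CPM in the T NDE libraries, 105, 109 and 114 CPM in the NT NDE ones, 92.4, 79.3 and 71.5 CPM in the T NC ones and 132, 116 and 120 CPM in the NT NC ones. T NDE replicate 3 was the 1 T library inside the NT range. The averaged log2 fold change of T over NT was -0.45 (SE 0.161, 95% interval -0.81 to -0.08, adjusted p = 0.992 by edgeR). Cd209b encodes SIGN-R1, which binds dextrans and capsular polysaccharides of bacteria. It had 330, 371 and 635 CPM in the T NDE libraries, 558, 547 and 571 CPM in the NT NDE ones, 411, 406 and 417 CPM in the T NC ones and 589, 448 and 455 CPM in the NT NC ones. T NDE replicate 3 was the highest of all 12 libraries, while the other 5 T libraries lay below every NT library. Its averaged log2 fold change was -0.30 (SE 0.152, 95% interval -0.64 to 0.04, adjusted p = 0.992 by edgeR).

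Timd4 encodes TIM-4, a phosphatidylserine receptor for dying cells. It had 158, 182 and 262 CPM in the T NDE libraries, 237, 238 and 231 CPM in the NT NDE ones, 182, 184 and 173 CPM in the T NC ones and 250, 192 and 221 CPM in the NT NC ones. As with Cd209b, the highest of all libraries was T NDE replicate 3 and the other 5 T libraries lay below every NT library. Its averaged log2 fold change was -0.26 (SE 0.109, 95% interval -0.50 to -0.02, adjusted p = 0.992 by edgeR).

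Marco encodes a class A scavenger receptor for bacteria and modified lipoproteins. It had 290, 287 and 469 CPM in the T NDE libraries, 451, 417 and 453 CPM in the NT NDE ones, 339, 294 and 311 CPM in the T NC ones and 427, 277 and 270 CPM in the NT NC ones. T and NT overlapped, and NT NC replicates 2 and 3, both with salivary transcripts, were the lowest of the 12 libraries. Its averaged log2 fold change was -0.19 (SE 0.156, 95% interval -0.54 to 0.16). Cd5l encodes a secreted protein of tissue macrophages with scavenger receptor domains. It had 32.9, 27.1 and 72.8 CPM in the T NDE libraries, 68.3, 45.1 and 45.7 CPM in the NT NDE ones, 36.4, 29.1 and 55.9 CPM in the T NC ones and 48.0, 22 and 15.5 CPM in the NT NC ones. The groups overlapped throughout, and Cd5l was the most variable member: its biological coefficient of variation within groups was 0.431, against 0.131 for Siglec1 and 0.141 for Timd4. The averaged log2 fold change of Cd5l was 0.12 (SE 0.367) and that of Cd163 was -0.08 (SE 0.227), both with intervals that span 0.

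**Figure D2:**
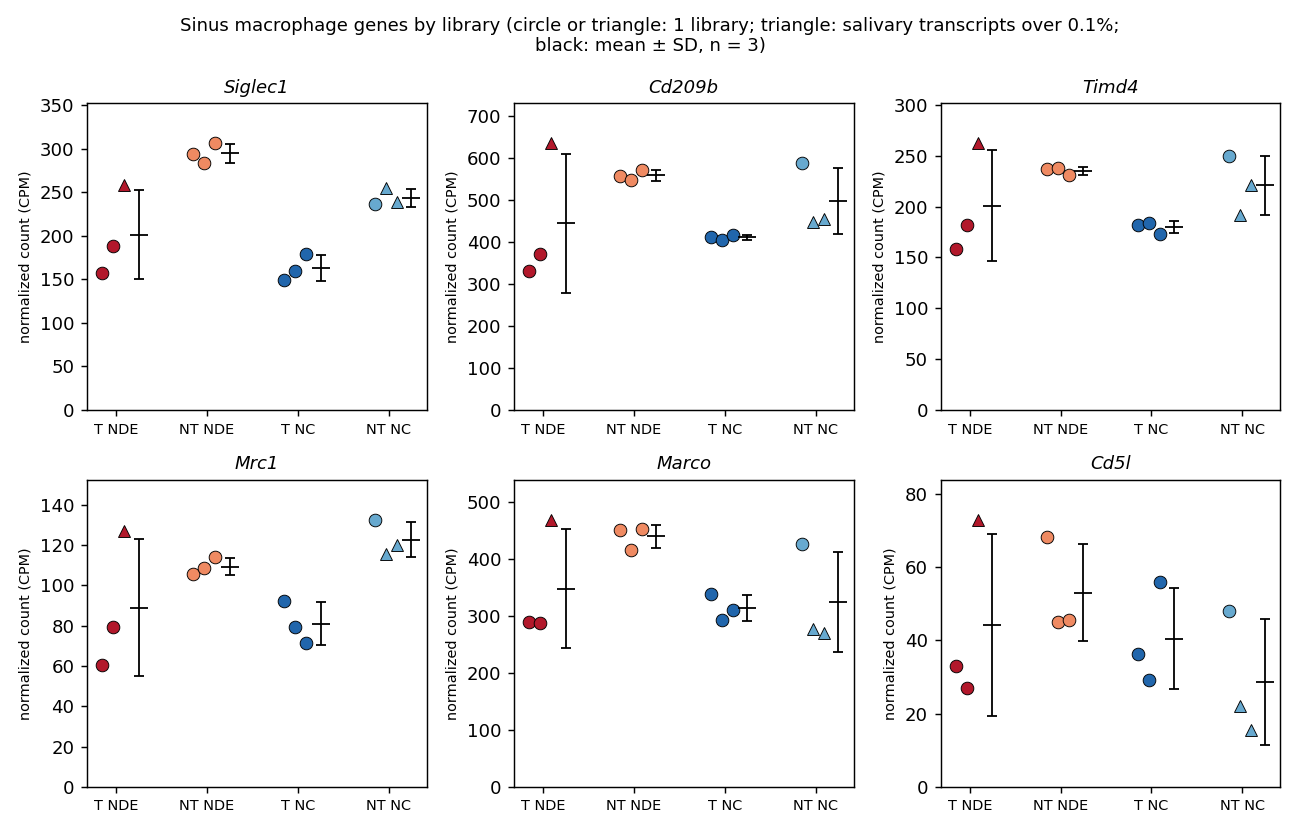
CPM of 6 members in every library, with groups from left to right T NDE, NT NDE, T NC and NT NC, the mean ± SD (n = 3) in black, and triangles for the 3 libraries with over 0.1% salivary transcripts. Siglec1 is lower in each T group than in its NT group, and the T NDE triangle lies at or above the NT libraries for Cd209b, Timd4, Marco and Cd5l.

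Leaving out T NDE replicate 3 brought 4 members past the threshold for T against NT averaged over nerve status. Every tested member was highest in this library among the T libraries, so its removal lowers T for each of them. The p-values of this fit depend on that choice of library and are no separate evidence of a difference. Leaving out any other single library called no member in this comparison. In that fit 0.125% of 17645 genes were called, 22 in all. Siglec1 was lower in T by -0.67 on the log2 scale (SE 0.059, adjusted p = 0.000122 by edgeR). Mrc1 followed at -0.62 (adjusted p = 0.0104), Cd209b at -0.47 (adjusted p = 0.0104) and Timd4 at -0.38 (adjusted p = 0.0280). Marco (-0.32, adjusted p = 0.516), Cd5l (-0.15, adjusted p = 0.948) and Cd163 (-0.12, adjusted p = 0.943) did not pass. For the 4 members that passed, T NDE replicate 3 was the only T library not below the NT range. Without it their T libraries therefore all lay below their NT libraries, a pattern held by 0.468% of the 17301 genes. This describes the same values as the fit and is no separate evidence. With all 12 libraries, 0 members and 0.0636% of genes had T below NT without overlap.

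Within nerve status the same fit called 2 members in T NDE against NT NDE, Siglec1 (-0.76, adjusted p = 0.00501) and Cd209b (-0.67, adjusted p = 0.0369), where 0.0227% of genes were called, 4 genes in all. It called 1 member in T NC against NT NC, Siglec1 (-0.58, SE 0.078, adjusted p = 0.0160), where 0.017% of genes were called, 3 in all. With all 12 libraries, 0 members passed in either comparison, beside 0.00578% of genes (1 gene) in T NDE against NT NDE and 0% in T NC against NT NC, where 1350 genes had an unadjusted p under 0.05 and DESeq2 called 40. The T NC and NT NC libraries are the same in both fits, so the Siglec1 difference there was unchanged in size and the spread estimated over all groups was smaller. Leaving out any other single library called 0 members in these comparisons. Markers of other cells moved in the fit without T NDE replicate 3 too. The median of 8 lymphatic endothelial genes was -0.26 for T over NT on average and -0.54 for T NDE over NT NDE, against -0.11 and -0.20 with all 12 libraries. Of 7 B cell genes, 7 were higher in T on average (median 0.08), against 5 (median 0.02) with all libraries, and 0 genes of either list passed. Their part in the member differences was not tested.

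Leaving out all 3 libraries with salivary transcripts called 5 members lower in T than in NT on average, where 0.363% of 18185 genes were called, 66 in all. These were Mrc1 (-0.66, adjusted p = 0.0237), Siglec1 (-0.64, adjusted p = 0.00144), Cd209b (-0.58, adjusted p = 0.000650), Marco (-0.51, adjusted p = 0.00163) and Timd4 (-0.46, adjusted p = 0.00204), all by edgeR. Cd5l was at -0.53 (SE 0.270, adjusted p = 0.664). In T NDE against NT NDE, 4 members were called, Siglec1 (-0.76), Cd209b (-0.66), Marco (-0.60) and Timd4 (-0.46), beside 0.154% of genes. In T NC against NT NC, 0 members were called, with Siglec1 at -0.53 (adjusted p = 0.108) and Cd209b at -0.51 (adjusted p = 0.0585). That fit keeps 1 NT NC library, replicate 1, which is assumed to vary like the other groups. The same library stands for NT NC in the average of T over NT. It was the highest NT NC library for Cd209b (589 CPM), Marco (427), Timd4 (250), Mrc1 (132) and Cd5l (48.0), and the lowest for Siglec1 (237). In the same fit the median for T over NT was -0.33 for the lymphatic endothelial genes and 0.18 for the B cell genes, all 7 of which were higher in T. In T NDE replicate 3 the high member levels stood beside the highest salivary, red cell and lymphatic endothelial shares. In NT NC replicates 2 and 3 salivary transcripts stood beside the lowest Marco and Cd5l levels. The part of these tissues in the member levels was not tested.

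**Figure D3:**
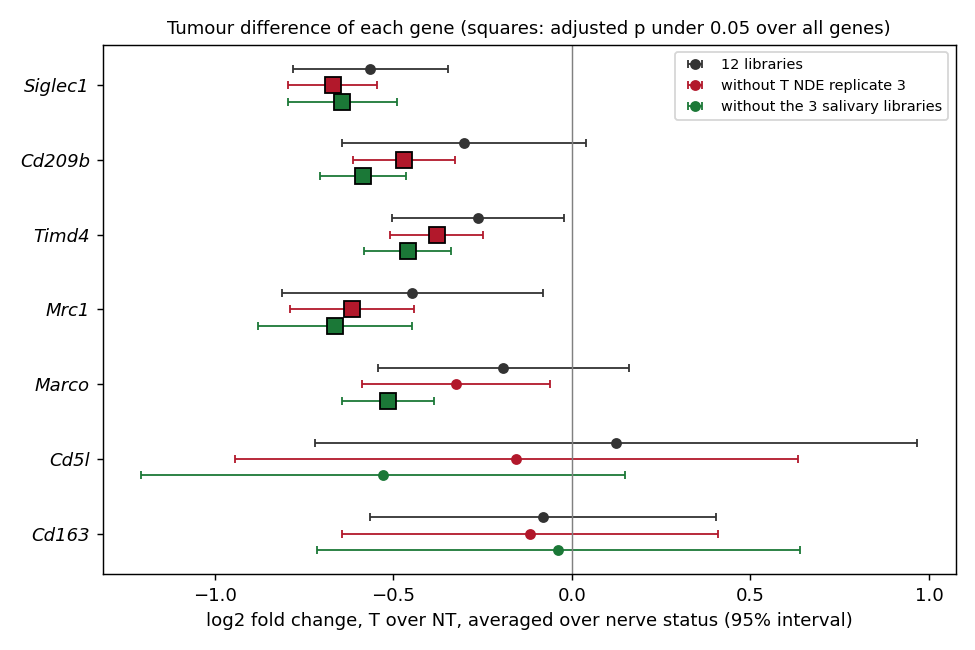
Log2 fold change of T over NT, averaged over nerve status, with 95% intervals for the 7 tested members, from all 12 libraries (black), without T NDE replicate 3 (red) and without the 3 libraries with salivary transcripts (green). Squares mark an adjusted p under 0.05 over all genes: 0 squares in black, 4 in red and 5 in green.

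Nerve inhibition went with higher mean levels of 6 of the 7 tested members, averaged over tumour status, but 0 passed the threshold by edgeR, where 0.0983% of genes (17 genes) were called. At an unadjusted p under 0.05 there were 2 members, beside 1591 genes in all, and by DESeq2 0 members and 130 genes were called. In tumour-bearing mice, Siglec1 averaged 202 ± 51.4 CPM with nerve inhibition (T NDE) and 163 ± 15.4 without (T NC). In tumour-free mice it averaged 295 ± 11.1 CPM with inhibition (NT NDE) and 244 ± 10.4 without (NT NC; SD, n = 3 each). For Siglec1 the T NDE and T NC libraries overlapped in range. Its log2 fold change of NDE over NC was 0.29 (SE 0.099, adjusted p = 0.408 by edgeR). Cd163 averaged 1.62 ± 0.161 CPM with and 0.976 ± 0.400 without inhibition in T mice, and 1.55 ± 0.397 with and 1.13 ± 0.206 without inhibition in NT mice. At 14 to 38 counts a library its averaged difference was 0.60 (SE 0.228, adjusted p = 0.440).

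For the other members the 95% interval of the difference between NDE and NC spanned 0. Their averaged log2 fold changes were 0.29 for Marco (95% interval -0.06 to 0.65), 0.52 for Cd5l (-0.32 to 1.36), 0.14 for Cd209b (-0.20 to 0.48), 0.13 for Timd4 (-0.12 to 0.37) and -0.02 for Mrc1 (-0.38 to 0.35). Taken apart, 0 members passed in T NDE against T NC, where 0% of genes were called (1008 at an unadjusted p under 0.05, and 44 by DESeq2), and 0 in NT NDE against NT NC, where 0% were called (1796 at an unadjusted p under 0.05, and 138 by DESeq2). The direction of 4 members turned without the salivary libraries. Only replicate 1 of NT NC is then left, the highest NT NC library for these 4 members. In that fit 5 of the 7 were at lower mean levels in NDE than in NC, the 4 being Cd209b (-0.15), Cd5l (-0.14), Timd4 (-0.08) and Marco (-0.04). Siglec1 was then at 0.20 and Cd163 at 0.64, and 0 members passed.

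Whether the nerve difference depended on the tumour was tested by the interaction term, the log2 difference of T NDE and T NC minus that of NT NDE and NT NC. For this term 0 of the 7 members passed, where 0% of genes were called by edgeR (1230 genes at an unadjusted p under 0.05, and 43 by DESeq2). Siglec1 had an interaction of 0.03 on the log2 scale, with a 95% interval of -0.40 to 0.46. The interval of Timd4 was -0.41 to 0.55, that of Cd209b -0.74 to 0.63, that of Marco -0.99 to 0.41 and that of Mrc1 -0.43 to 1.03. The smallest adjusted p among the members was 0.857, that of Cd5l.

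Several members varied together from library to library. Among the 21 pairs of the 7 tested members, Pearson's r of log2 CPM over the 12 libraries passed an adjusted permutation p of 0.05 in 9, and Spearman's rho in 7. The closest pair was Cd209b with Timd4 (r = 0.961, rho = 0.909, permutation p = 1e-05 for r, the smallest that 100000 resamples can give, adjusted p = 0.00021). Without the 2 libraries farthest from the median of Cd209b, T NDE replicates 1 and 3, their r was 0.931. Timd4 with Mrc1 had r = 0.886 and rho = 0.846 (adjusted permutation p = 0.0018 and 0.0054), and r = 0.823 without the 2 farthest libraries. Cd209b with Mrc1 had r = 0.853 and rho = 0.839 (adjusted permutation p = 0.0031 and 0.0054), and r = 0.756 without them. Siglec1 had r = 0.821 with Timd4 and 0.818 with Cd209b, with rho of 0.748 and 0.755 (adjusted permutation p = 0.0078 for each r and 0.0242 for each rho), and r of 0.760 and 0.775 without T NC replicate 1 and T NDE replicate 1.

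Marco ran closest to Cd209b (r = 0.864, rho = 0.713) and to Cd5l (r = 0.825, rho = 0.895), with an adjusted permutation p of 0.0044 for both r, and r of 0.859 and 0.800 without the 2 farthest libraries of each pair. Cd5l and Mrc1 showed r = 0.105, and all 6 pairs with Cd163 had r between 0.069 and 0.456, none past the threshold. The 12 libraries share 4 group means, and part of each r is the difference between groups. With group means removed, 0 of the 21 pairs passed in the exact test over the 1296 rearrangements within groups, although r was still 0.954 for Cd209b with Timd4, 0.918 for Cd209b with Marco and 0.910 for Timd4 with Mrc1 (adjusted p = 0.127 for each). Without the salivary libraries 9 of 21 pairs passed over the other 9 libraries.

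**Figure D4:**
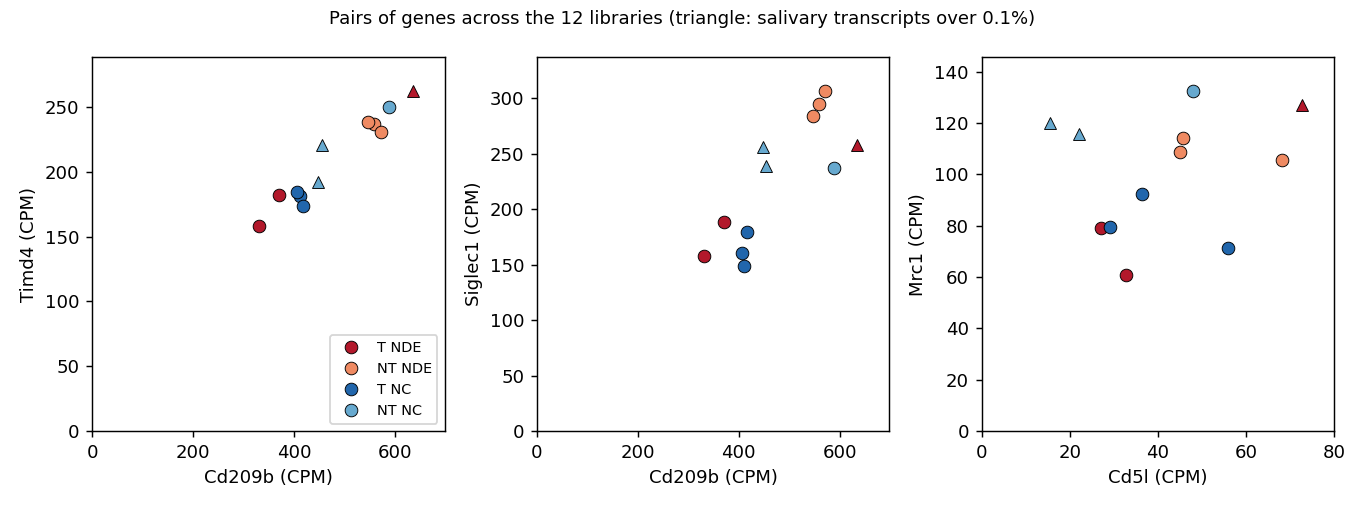
CPM of Timd4 against Cd209b, Siglec1 against Cd209b and Mrc1 against Cd5l, with 1 point per library, groups by colour and triangles for libraries with over 0.1% salivary transcripts. Timd4 follows Cd209b over the 12 libraries (r = 0.961 on the log2 scale) but not in its order within NT NDE or T NC, whereas Mrc1 and Cd5l do not line up (r = 0.105), with NT NC replicates 2 and 3 at low Cd5l.

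The genes whose level over the 12 libraries was most like each member were read from 11100 genes with at least 5 CPM on average, by Pearson's r of log2 CPM, as a description. Mrc1 was followed by Mertk (r = 0.963), a receptor tyrosine kinase for the uptake of dying cells, and by the transporter gene Abca9 (0.961). Timd4 was followed by Frmd4b (0.960), by the growth factor gene Igf1 (0.958) and by Ltbp2 (0.948), a matrix protein. Cd209b was followed by Cyp1b1 (0.963), Gprc5c (0.962) and Frmd4b (0.958). Siglec1 was followed by C6 (0.946), a terminal complement component, Itsn1 (0.937) and Sned1 (0.917). Marco was followed by Itga2b (0.942), the integrin chain of platelets that lymph node macrophages are also known to express, Olfm1 (0.926) and Plod1 (0.921). Cd5l was followed by Naxe (0.892), Stau1 (0.857) and Ppp2r5b (0.850), of which the last 2 were at 0.643 and 0.677 without the salivary libraries. Cd163 was followed by Gna15 (0.872), Rabgef1 (0.865) and Pcgf2 (0.860).

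General macrophage genes had lower mean levels in T than in NT nodes too, with a larger median difference under nerve inhibition than without it. All 12 genes of a pan-macrophage list were lower on average over nerve status, with a median log2 fold change of -0.17, 3 of them at an unadjusted p under 0.05 and 0 past the threshold. Lyz2, lysozyme of macrophages and neutrophils, was at -0.14 (SE 0.082), Axl, a kinase related to Mertk, at -0.14 (SE 0.107), and C1qc, a chain of complement C1q, at -0.21 (SE 0.087). For T NDE over NT NDE 12 of 12 were lower (median -0.27), and for T NC over NT NC 9 of 12 (median -0.06). These medians were -0.47 and -0.05 without T NDE replicate 3, and -0.46 and -0.24 without the salivary libraries. The median of the averaged difference was -0.27 without T NDE replicate 3 and -0.35 without the salivary libraries. Without T NDE replicate 3, 2 of the 12 passed, both lower in T. Mertk was 1 of them, at -0.52 (SE 0.070, adjusted p = 0.00838 by edgeR). It had 22.1, 25.4 and 44.0 CPM in the T NDE libraries, 35.1, 38.3 and 37.4 CPM in the NT NDE ones, 32.6, 28.5 and 28.4 CPM in the T NC ones and 43.1, 39.6 and 35.9 CPM in the NT NC ones, so that T NDE replicate 3 was its highest library as well. Genes of scavenging and iron handling were lower in 11 of 13 cases, with a median of -0.11 and 0 passing. Their median was -0.31 without T NDE replicate 3 and -0.39 without the salivary libraries. Without the salivary libraries 2 of these passed, both lower in T: Stab2, a hyaluronan scavenger receptor (-0.50, adjusted p = 0.0470), and Folr2, a folate receptor of resident macrophages (-0.48, adjusted p = 0.0235).

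A macrophage niche list joined growth factors, lymphotoxins and the RANK ligand with receptors and chemokines. Its genes showed no common direction between T and NT. Of 10 tested niche genes, 5 were higher and 5 lower in T than in NT, with a median of 0.01 and 0 passing. Csf1, the macrophage growth factor, averaged 86.2 ± 25.8 CPM for T NDE, 103 ± 1.76 for NT NDE, 79.5 ± 3.41 for T NC and 81.9 ± 7.86 for NT NC (SD, n = 3 each). For NDE over NC, 9 of the 10 were higher, with a median of 0.19, 3 at an unadjusted p under 0.05 and 0 passing. Without the salivary libraries 9 were still on the higher side, with a median of 0.05. With all 12 libraries Cxcl13, the follicular chemokine, was at 0.30 (SE 0.081, adjusted p = 0.297), and Lta, a lymphotoxin, at 0.23 (SE 0.080, adjusted p = 0.406). Ltb, another lymphotoxin and the most abundant niche gene, had 334 to 436 CPM in the NDE libraries and 332 to 432 CPM in the NC ones. Lymphatic endothelial genes were lower in T in 6 of 8 cases (median -0.11), B cell genes higher in 5 of 7 (median 0.02) and T cell genes lower in 5 of 8 (median -0.005), with 0 passing in each list. The T cell median was 0.02 without T NDE replicate 3 and -0.06 without the salivary libraries, and those of the other 2 lists moved as given above.

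Siglec1 is known as an interferon-inducible gene, so the 12 genes of a type I interferon list are given beside it. All 12 had lower mean levels in NDE than in NC, with a median of -0.82, 11 at an unadjusted p under 0.05 and 0 passing by edgeR, while Siglec1 was at 0.29. The antiviral gene Mx1 was at -0.85 (SE 0.180, adjusted p = 0.247) and the transcription factor gene Irf7 at -0.73 (SE 0.244, adjusted p = 0.428). For T over NT all 12 were lower, with a median of -0.48, 2 at an unadjusted p under 0.05 and 0 passing, beside -0.56 for Siglec1. Without the salivary libraries the medians were -0.62 for NDE over NC and -0.23 for T over NT, while Siglec1 was at 0.20 and -0.64. Whether interferon had a part in the Siglec1 differences was not tested.

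**Figure D5:**
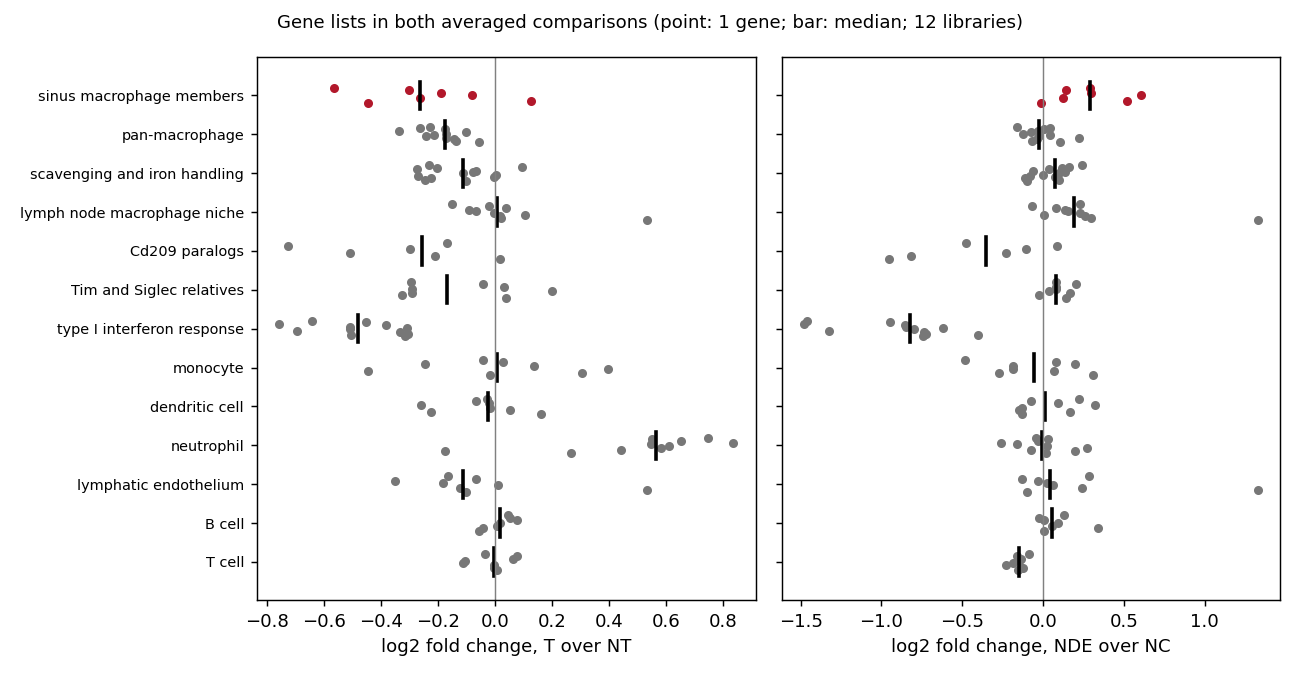
Log2 fold change of each tested gene of 13 lists for T over NT (left) and NDE over NC (right), both averaged over the other factor, from all 12 libraries, with a bar at each list's median and the sinus macrophage genes in red. The members have a median of -0.26 on the left and 0.29 on the right, and the interferon genes -0.48 and -0.82.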

How the data were processed

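RNA was measured by bulk mRNA sequencing of 12 lymph node libraries. Trizol extraction and standard Illumina mRNA library preparation are recorded per the labels. The deposited table holds raw read counts, whole numbers not normalized by the authors, and per the submitters' processing notes HISAT2 2.0 and the mm10 build were used. The counter, annotation and strand setting are not stated, so reads shared with overlapping genes cannot be told apart. Members and gene lists were chosen with earlier results of these data known.

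Counts were fitted in R 4.3.3 with edgeR 4.0.16: filterByExpr by group (minimum count 10, minimum total 15, 17301 genes kept), TMM factors, and a robust quasi-likelihood model with a mean for each of the 4 groups. Tests are two-sided, with Benjamini-Hochberg adjustment over all tested genes and a threshold of 0.05. The script was tested on simulated data. CPM use TMM-scaled library sizes. Correlations used log2 CPM with a prior count of 2 and 100000 permutations, adjusted over 21 pairs, since Vsig4 was not tested. P-values measure the spread between libraries, and floors cover counting error only. An exact permutation of 3 libraries against 3 cannot reach 0.05.

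Alternatives were DESeq2 1.42.0, its size factors in edgeR, no filter, only the libraries of the compared groups, a replicate block, and fits without each library or without the 3 libraries in which salivary gland genes exceeded 0.1% of counts. All 8 members are described. For likeness the 3 genes with the highest r were named, of which 1 is not reported here, and from each list genes past the threshold or otherwise up to 3 of its most abundant genes. Niche, interferon and general macrophage genes beyond these were picked with their values in view. GENCODE M21 gave the positions, and RefSeq on GRCm38.p6 the promoters, found for 7 of 8 members, all but Siglec1.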

Additional observations from a re-analysis of the deposited data

How the results depend on the processing

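Of 861 values of single members under alternatives (49 results), 794 kept their direction and their side of the threshold, 19 kept their direction and newly passed, and 48 turned sign. In the order T NC over NT NC, T NDE over T NC, NT NDE over NT NC, T NDE over NT NDE, interaction, NDE over NC and T over NT, DESeq2 called 40, 44, 138, 17, 43, 130 and 6 genes, where edgeR called 0, 0, 0, 1, 0, 17 and 0, and Siglec1 was the 1 member called in T NC over NT NC, T NDE over NT NDE and T over NT. With no filter, edgeR called 4, 12 and 43 genes in the first 3 comparisons, 1 for the interaction, 41 for NDE over NC and 2 for T over NT. With only the 2 groups' libraries, 37 genes were called in NT NDE over NT NC. Without the salivary libraries 7, 1, 33, 28, 3, 49 and 66 genes were called in that order, with 4 members in T NDE over NT NDE and 5 in T over NT. The causes of these differences were not tested, and the fits that leave out libraries have fewer samples.

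Leaving out the salivary libraries, which keeps 1 NT NC library, turned these signs. Cd5l was at -0.24 in T NC over NT NC and -0.53 in T over NT, and Cd163 at -0.0041 in T NDE over NT NDE. For T NDE over T NC, Cd209b was at -0.23, Marco at -0.12, Timd4 at -0.078, Cd5l at -0.43 and Mrc1 at -0.21. For NT NDE over NT NC, Cd209b was at -0.075 and Timd4 at -0.084, and for NDE over NC Cd209b at -0.15, Marco at -0.038, Timd4 at -0.081 and Cd5l at -0.14. The Siglec1 interaction was at -0.23. The r of Marco with Cd163 was -0.0078 and that of Cd163 with Mrc1 -0.24 without the 2 farthest libraries, while without the salivary ones Cd163 with Mrc1 had -0.031. With group means removed 0 pairs passed.

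Leaving out 1 library gave 0 to 3, 0 to 1, 0 to 7, 0 to 4, 0 to 2, 0 to 30 and 0 to 22 genes in the same order. Members called ranged from 0 to 1 in T NC over NT NC, 0 to 2 in T NDE over NT NDE and 0 to 4 in T over NT, each highest without T NDE replicate 3. Signs turned for Marco (-0.16 to 0.20) and Cd163 (-0.56 to 0.0065) in T NC over NT NC, and for Cd163 (-0.068 to 0.29) in T NDE over NT NDE. For T NDE over T NC, ranges were -0.23 to 0.28 for Cd209b, -0.13 to 0.27 for Marco, -0.081 to 0.30 for Timd4, -0.43 to 0.42 for Cd5l and -0.21 to 0.34 for Mrc1. For the interaction they were -0.18 to 0.18 for Siglec1, -0.40 to 0.12 for Cd209b, -0.17 to 0.21 for Timd4 and -0.046 to 0.51 for Mrc1. For NDE over NC they were -0.034 to 0.22 for Cd209b and -0.19 to 0.085 for Mrc1, and for T over NT -0.25 to 0.039 for Cd163 and -0.15 to 0.42 for Cd5l.

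Replicate numbers recur across groups, but not all same-numbered libraries deviated together: r ran from -0.21 to 0.43 over 18 pairs, 8 above 0.1, against -0.45 to 0.33 over 36 pairs of unlike number, 10 above 0.1. Not every library correlated best with one of its own number. With a replicate block, 3 genes were called in NT NDE over NT NC, 3 in T NDE over NT NDE, 1 for the interaction and 1 for NDE over NC, and 0 in the other comparisons, with 0 members in each. Depth limits Cd163 and Vsig4 alone among the members.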

Other observations

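The close relatives of the members were measured as well. Cd209b has 6 tested paralogs on chromosome 8, and 5 of them were lower in T than in NT, with a median log2 fold change of -0.26, and 5 lower in NDE than in NC, with a median of -0.35. In both comparisons 2 had an unadjusted p under 0.05 and 0 passed the threshold by edgeR. Cd209d was at -0.30 (SE 0.120) for T over NT, the size seen for Cd209b, and Cd209a, a lectin of dendritic cells, at -0.48 (SE 0.143, adjusted p = 0.329) for NDE over NC, where Cd209b was at 0.14. Among 8 Tim and Siglec family relatives, 5 were lower in T (median -0.17, 3 at an unadjusted p under 0.05). Cd33, a myeloid sialic acid-binding lectin, was lower in T by -0.35 without T NDE replicate 3 (adjusted p = 0.00977) and by -0.34 without the salivary libraries (adjusted p = 0.0311). Siglech, a lectin of plasmacytoid dendritic cells, was at -0.54 without the salivary libraries (adjusted p = 0.0112). The B cell lectin Cd22 was at 0.03 (SE 0.116).

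Other myeloid lists differed in direction between T and NT. Neutrophil genes were higher in T in 9 of 10 cases on average over nerve status (median 0.57, 5 at an unadjusted p under 0.05), but the pattern differed with nerve status. For T NDE over NT NDE all 10 had lower mean levels (median -0.30, 1 at an unadjusted p under 0.05), and for T NC over NT NC 9 of 10 had higher ones (median 1.52, 9 at an unadjusted p under 0.05). The interaction of these 10 genes had a median of -1.86, with 9 at an unadjusted p under 0.05 and 0 passing by edgeR. NT NC replicates 2 and 3, both with salivary transcripts, had the lowest mean neutrophil levels of all libraries. Without the salivary libraries the medians were 0.36 for T over NT, 1.03 for T NC over NT NC and -1.29 for the interaction. That fit keeps only replicate 1 of NT NC. Monocyte genes were higher in T in 4 of 8 cases (median 0.005). Dendritic cell genes were lower in T in 6 of 8 cases (median -0.03), the direction of the sinus macrophage genes, and in 8 of 8 without the salivary libraries (median -0.14). In each of these lists 0 genes passed for T over NT. Red cell genes were higher in T in 5 of 6 cases (median 0.42), adipocyte genes in 4 of 4 (median 1.31) and salivary gland genes in 11 of 11 (median 0.91), again with 0 passing. These medians moved with single libraries. Without T NDE replicate 3 red cell genes were higher in T in 2 of 6 cases (median -0.41), adipocyte genes in 4 of 4 (median 0.37) and salivary gland genes in 0 of 11 (median -3.21). Without all 3 salivary libraries the medians were -0.38 for red cell genes, 0.16 for adipocyte genes and 0.96 for the 7 salivary gland genes still tested.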
